A study of Mus musculus with 3 samples.

Results

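Complement genes and complement inhibitors were followed in colon organoid cells exposed to interferon gamma (IFN-γ). The 8 genes were chosen by symbol from the 32285 genes of the count tables. They were the protease gene C1ra, the components C2, C3, C4b and Cfb, the soluble inhibitor Serping1 and the membrane-anchored inhibitors Cd55 and Cd59a. A list of 51 genes of the complement system served as the surrounding set. All 8 genes had UMIs (unique molecular identifiers, each marking 1 captured RNA molecule) in at least 1 library, and 7 of them reached 10 UMIs over the libraries compared. Cd59a did not.

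Single-cell RNA sequencing (sc-RNAseq) covered 3 libraries of mouse colon organoids, which are cultures grown from dissected colon epithelium. One library was untreated, one was labelled as treated with IFN-γ for 24 h and one for 48 h, and the methods of the study give a dose of 50 ng/ml for its organoids. Live epithelial cells had been sorted by FACS, and the labels name no strain, animal or replicate culture. With 1 library per condition, no test between conditions could be made, and "higher" or "lower" describes these libraries only.

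Complement is a cascade of blood proteins that marks and lyses microbes and damaged cells. In the classical pathway the protease C1r activates the protease C1s, and C1s cleaves C4 and C2, which together form an enzyme that cleaves C3. In the alternative pathway factor B (Cfb) takes the place of C2. Intestinal epithelium makes several of these proteins itself, and host cells are shielded by C1 inhibitor (Serping1), which blocks C1r and C1s, by CD55, which takes apart the C3-cleaving enzymes, and by CD59, which stops the pore that lyses cells.

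The depth cut of 5000 UMIs left 1058 untreated cells, 917 cells after 24 h and 2934 cells after 48 h. They held 49801935, 71077817 and 47243500 UMIs, with a median per cell of 33550, 68784 and 10772. Levels are CPM, the counts of a gene summed over cells and scaled to the summed counts of all genes, with 95% intervals for counting error only. Between 1 and 4 cell barcodes were shared by pairs of libraries. The interferon target Irf1 stood at 23.5 CPM in untreated cells, 331 CPM after 24 h and 310 CPM after 48 h, in the direction of the labels. The 5 epithelial markers had 4173 to 6674 CPM in sum. Of 9 immune markers, 6 or 7 had fewer than 10 UMIs in each library and Ptprc and Tyrobp had 0, and their sum ran from 2.53 CPM (untreated) through 3.12 to 4.30 CPM (48 h), most of it Cd68. The 7 stromal markers summed to 0.535 to 1.29 CPM and the 4 endothelial markers to 0.394 to 1.39 CPM, with Col1a1, Col3a1, Lum and Kdr at 0. Without any cell that had a UMI of these markers, the number of the 8 genes at least 2-fold higher than untreated stayed at 5 at both times.

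The positions of the genes show 2 groups of neighbours. On mouse build GRCm38, C4b (17:34728380-34743882), Cfb (17:34856374-34862518) and C2 (17:34862604-34898265) lie on the minus strand of chromosome 17, in the major histocompatibility complex, with 85 bases between Cfb and C2. GENCODE also annotates Gm20547 over both Cfb and C2, which is not in the count tables. C3 (17:57203970-57228136) lies on the same chromosome and strand. C1ra (6:124512405-124523443) has C1s1 6.90 kb downstream on the opposite strand. Serping1 (2:84765387-84775444), Cd55 (1:130439027-130462744) and Cd59a (2:104095801-104115354) lie apart. Several members have a close copy in the genome. Of the 60-base stretches in the C1ra transcript, 44.3% also occur in C1rb, and 29.7% of those in C4b occur in C4a, against 9.37% for Cd55 in Cd55b and 2.58% for Cd59a in Cd59b. In the last 500 bases, where the 3′ libraries read, the shares were 17.2% for C1ra, 32.4% for C4b and 0 for the other pairs. Reads from shared stretches cannot be assigned, so the counts of C1ra and C4b are less certain than those of Cd55.

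Promoter windows in the RefSeq table (GRCm38.p6, from 250 bases before to 50 bases after a start) matched 4 of the 8 genes, C1ra, C3, Cd55 and Cd59a. They were searched on both strands for GAS (TTCNNNGAA), a motif of genes that respond to IFN-γ, for ISRE (GAAA, 2 bases of any kind, GAAA), a motif of interferon-regulated genes, and for the NF-κB site. These letters occur in 8.30%, 3.44% and 5.81% of the 32851 windows of that length. C1ra and its copy C1rb each held 1 GAS match, Cd59a held 1 ISRE match, and C3 and Cd55 held none of the 3 motifs. The stretches are shown because C1ra and C1rb carry the same match and had very different counts, and because C3 was the late gene of the set. Capitals mark the match, and each line reads 5′ to 3′ on the gene's strand.
C1ra, chr6:124512641-124512670, plus strand: gcaaatgcttcaTTCCCTGAAacattcctc
C1rb, chr6:124570300-124570329, plus strand: caaatgcttcaTTCCCTGAAacatttctcc
Cd59a, chr2:104095604-104095633, plus strand: tgtttttaaaGAAAGGGAAAatcaagagcc
C3, chr17:57228137-57228386, minus strand, the 250 bases before its start: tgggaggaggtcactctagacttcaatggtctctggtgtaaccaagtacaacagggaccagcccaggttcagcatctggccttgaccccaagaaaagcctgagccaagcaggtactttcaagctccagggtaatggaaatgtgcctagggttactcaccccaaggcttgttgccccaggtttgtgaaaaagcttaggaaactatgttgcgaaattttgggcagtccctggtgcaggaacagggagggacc
The GAS match of C1ra spans bases 33 to 41 after the RefSeq start, and that of C1rb lies 119 to 111 bases before its start. Both fall inside the gene bounds that GENCODE annotates. A match is a string of letters and no measured site.

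Relative to total UMIs, IFN-γ libraries had more RNA of the classical pathway components and of C1 inhibitor, a level amount of Cfb and less of Cd55. Of the 7 measured genes, 5 were at least 2-fold higher than untreated at 24 h, against 3.46% of the 17412 genes measured, and 0 were at least 2-fold lower, against 26% of all genes. At 48 h again 5 were at least 2-fold higher, against 5.26%, and 0 lower, against 16.6%. These 5 were C1ra, C2, C3, C4b and Serping1 at both times. The members and the wider list were chosen with earlier results of these data known, so such shares describe the sets and test nothing. The median log2 ratio of the 7 genes was 2.09 at 24 h and 3.99 at 48 h, where the median of all genes was -0.46 and -0.18. Scaling by TMM factors in place of total UMIs moved every log2 ratio by 0.45 at 24 h, by 0.19 at 48 h and by -0.26 for 48 h over 24 h, which brings the median of all genes close to 0. The ratios given are to total UMIs. Among the 8 genes, the shift turns the direction of Cfb in each comparison and of C1ra and Cd55 for 48 h over 24 h.

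**Figure D1:**
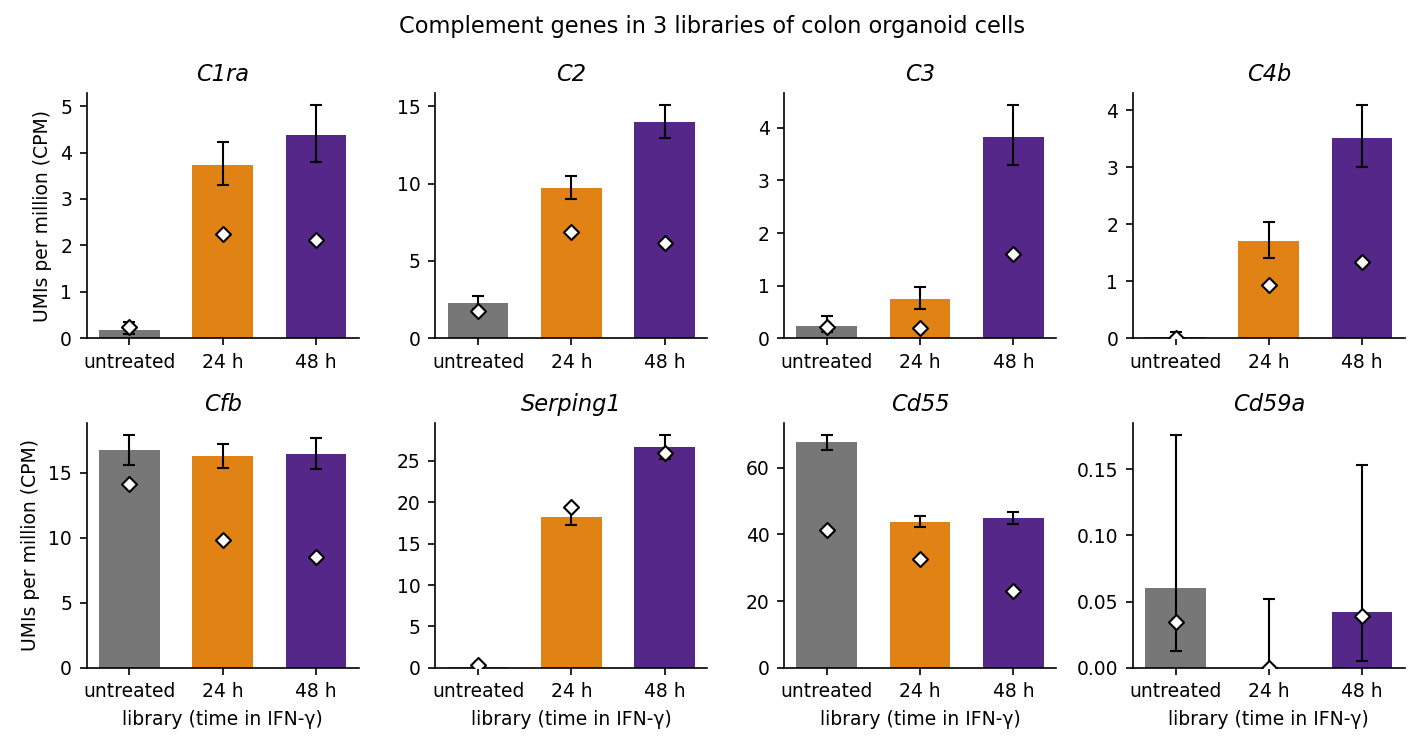
Levels of the 8 genes in CPM (vertical axis, linear from 0, a separate scale per gene) in the untreated, 24 h and 48 h libraries. Bars give UMIs summed over cells with 95% counting intervals, and diamonds give the level in barcodes with under 2000 UMIs of the same library. Cfb was level, Cd55 was lower in both treated libraries, and the diamonds of Serping1 lie at the height of its bars.

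C1ra encodes the protease that opens the classical pathway. It had 9 UMIs (0.181 CPM) in untreated cells, 266 UMIs (3.74 CPM) at 24 h and 207 UMIs (4.38 CPM) at 48 h. The treated libraries were 20.7-fold (10.7 to 45.8) and 24.2-fold (12.5 to 53.8) above untreated, and the interval of the ratio between 48 h and 24 h, 0.972 to 1.41, included 1. That log2 ratio was 0.23, and -0.03 under TMM factors. With the mean over cells of CPM the folds above untreated were 12.3 and 10.9. The partner protease C1s1, which C1r activates, had 0 UMIs untreated, 134 at 24 h and 103 at 48 h, at least 31.3-fold and at least 36.2-fold higher against a floor of 3 UMIs. C1rb had 0, 1 and 0 UMIs, so the GAS match shared by C1ra and C1rb went with counts in 1 of the 2 genes. The genes of C1q, the recognition part that binds C1r and C1s, did not reach 10 UMIs over any 2 libraries.

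C2 supplies the catalytic part of the classical C3-cleaving enzyme. It had 2.29 CPM untreated, 9.75 CPM at 24 h and 14.0 CPM at 48 h, from 114, 693 and 660 UMIs. The ratio to untreated was 4.26 (3.49 to 5.24) at 24 h and 6.10 (5.0 to 7.51) at 48 h. The later library was 1.43-fold (1.29 to 1.6) above the earlier one, a log2 ratio of 0.52 where the median of all genes was 0.26. In cells of similar depth C2 had no higher level at 48 h, with no counting interval computed. It had 17.2 CPM in the 306 shallowest cells at 24 h (median 13156 UMIs). In the 978 cells of middle depth at 48 h (median 10772 UMIs) it had 16.0 CPM. C4b, which encodes the scaffold of the same enzyme, had 1 UMI untreated, 121 UMIs (1.70 CPM) at 24 h and 166 UMIs (3.51 CPM) at 48 h. With a single untreated UMI its ratio was loosely bounded, at 84.8 (14.9 to 3376) and 175 (31.0 to 6953). Without the cells that had UMIs of immune, stromal or endothelial markers, it was at least 22.4 and at least 44.3. These are bounds against the floor of 3 UMIs. With the mean over cells of CPM it was 201 and 343. C4b was 2.06-fold (1.62 to 2.63) higher at 48 h than at 24 h. Its copy C4a, annotated as a processed transcript, had 5, 7 and 10 UMIs.

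C3 is the central component, cleaved by both pathways. It stood apart in time. It had 12 UMIs (0.241 CPM) untreated, 53 UMIs (0.746 CPM) at 24 h and 181 UMIs (3.83 CPM) at 48 h. The 24 h library was 3.09-fold (1.63 to 6.36) and the 48 h library 15.9-fold (8.88 to 31.3) above untreated, and 48 h exceeded 24 h by 5.14-fold (3.76 to 7.12). Between the treated libraries, C3 and C4b were the 2 of 7 genes at least 2-fold higher at 48 h, against 11.6% of all genes, and 0 were lower, against 2.31%. C4b lay close to that limit, and under TMM factors or in 6 other alternatives C3 alone passed it.

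Cfb, the factor B gene, was level relative to total UMIs. It had 833, 1154 and 776 UMIs, or 16.7, 16.2 and 16.4 CPM. Its ratio was 0.971 (0.887 to 1.06) at 24 h and 0.982 (0.889 to 1.08) at 48 h, so any difference larger than these bounds was outside the counting interval. Its sign depends on the scaling. TMM factors turn the log2 ratio from -0.04 to 0.40 at 24 h and from -0.03 to 0.16 at 48 h. For 48 h over 24 h they turn it from 0.02 to -0.24. The folds over untreated under TMM factors, 1.32 and 1.12, lay outside the counting intervals given above. The median gene was at -0.46 at 24 h and -0.18 at 48 h, so Cfb lay above it. Cfb and C2, 85 bases apart, thus had different ratios in the same libraries.

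Serping1 encodes C1 inhibitor, which inactivates C1r and C1s. It had 8 UMIs (0.161 CPM) in untreated cells, 1291 UMIs (18.2 CPM) at 24 h and 1258 UMIs (26.6 CPM) at 48 h, or 113-fold (57.2 to 262) and 166-fold (83.9 to 385) above untreated. With the mean over cells of CPM these were 54.0-fold and 57.7-fold, and without the enteroendocrine-like cells described below 196-fold and 370-fold. The barcodes with under 2000 UMIs, which may hold free RNA and shallow cells, carried it at 0.378, 19.4 and 25.9 CPM. They are called the background here. The lowest barcode of each library had 1390, 851 and 1624 UMIs, so this band differs between libraries and holds no barcode of lower depth. The level over all cells lay close to that of these barcodes in both treated libraries, with counting intervals of 17.2 to 19.2 CPM at 24 h and 25.2 to 28.1 CPM at 48 h. For comparison, the background held C2 at 6.88 and 6.15 CPM, C1ra at 2.25 and 2.12 CPM, C4b at 0.936 and 1.33 CPM and C3 at 0.187 and 1.61 CPM in the treated libraries, each below the level in cells.

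Cd55 is anchored on the cell surface and dismantles C3-cleaving enzymes. It had 67.6 CPM untreated, 43.8 CPM at 24 h and 44.9 CPM at 48 h, from 3366, 3115 and 2122 UMIs. The ratio was 0.648 (0.617 to 0.681) at 24 h and 0.665 (0.629 to 0.702) at 48 h. On the log2 scale these were -0.63 and -0.59, beside -0.46 and -0.18 for the median gene, and -0.18 and -0.40 under TMM factors. For 48 h over 24 h the log2 ratio of Cd55 was 0.04, and -0.23 under TMM factors. The 24 h value thus lay close to that of the median gene. Cd55b, its neighbour, had 89, 80 and 53 UMIs and ratios of 0.630 (0.460 to 0.862) and 0.628 (0.438 to 0.892). Cd59a had 3, 0 and 2 UMIs and Cd59b 9, 2 and 5 UMIs, so that Cd59a was at or under the floor of 3 UMIs in each library, 0.0602, 0.0422 and 0.0635 CPM, and no ratio is given.

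Among the 51 listed genes, 9 had 0 UMIs in all libraries. At 24 h, 23 could be measured, with 6 at least 2-fold higher and 9 at least 2-fold lower, against 3.46% and 26% of all genes, and a median log2 ratio of -0.63. At 48 h, 7 of 24 were higher and 6 lower, against 5.26% and 16.6%, with a median of -0.16. For 48 h over 24 h, 6 of 20 were higher and 0 lower, against 11.6% and 2.31%. The higher genes at 24 h were the 5 members and C1s1, and at 48 h C4a joined them with 10 UMIs and a ratio whose interval, 0.657 to 7.86, included 1.

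The lower genes included 4 other soluble inhibitors. Of 5 measured soluble inhibitors, Serping1 was at least 2-fold higher and 4 were at least 2-fold lower at both times, where 26% and 16.6% of all genes were lower. C4bp, a cofactor for the breakdown of C4b, had 8.81, 1.74 and 1.23 CPM, with ratios of 0.198 (0.161 to 0.242) and 0.139 (0.104 to 0.183). Clu, the gene of clusterin, had 8.53, 3.31 and 2.94 CPM, and its log2 ratio at 24 h, -1.37, was -0.92 under TMM factors and so no longer past 2-fold. Cpn1 had 3.88, 1.04 and 1.12 CPM, and Cfi, the factor I protease, had 17, 4 and 2 UMIs. In the lectin pathway, which starts the same cascade from sugars, Masp2 had 4.84, 0.774 and 2.43 CPM and Fcna 1.04, 0.310 and 0.402 CPM. Masp2 was 0.503-fold (0.399 to 0.631) at 48 h and so did not pass the 2-fold limit there. Cd59b, Cr2 and Itgam were also at least 2-fold lower at 24 h, on 17 or fewer UMIs in untreated cells for the first pair and 30 for Itgam. The membrane inhibitors Cd46 (9.92, 6.74 and 10.8 CPM) and Cr1l (63.5, 56.4 and 72.0 CPM) stayed within 2-fold. TMM factors turn the log2 ratio of Cr1l at 24 h from -0.17 to 0.28.

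**Figure D2:**
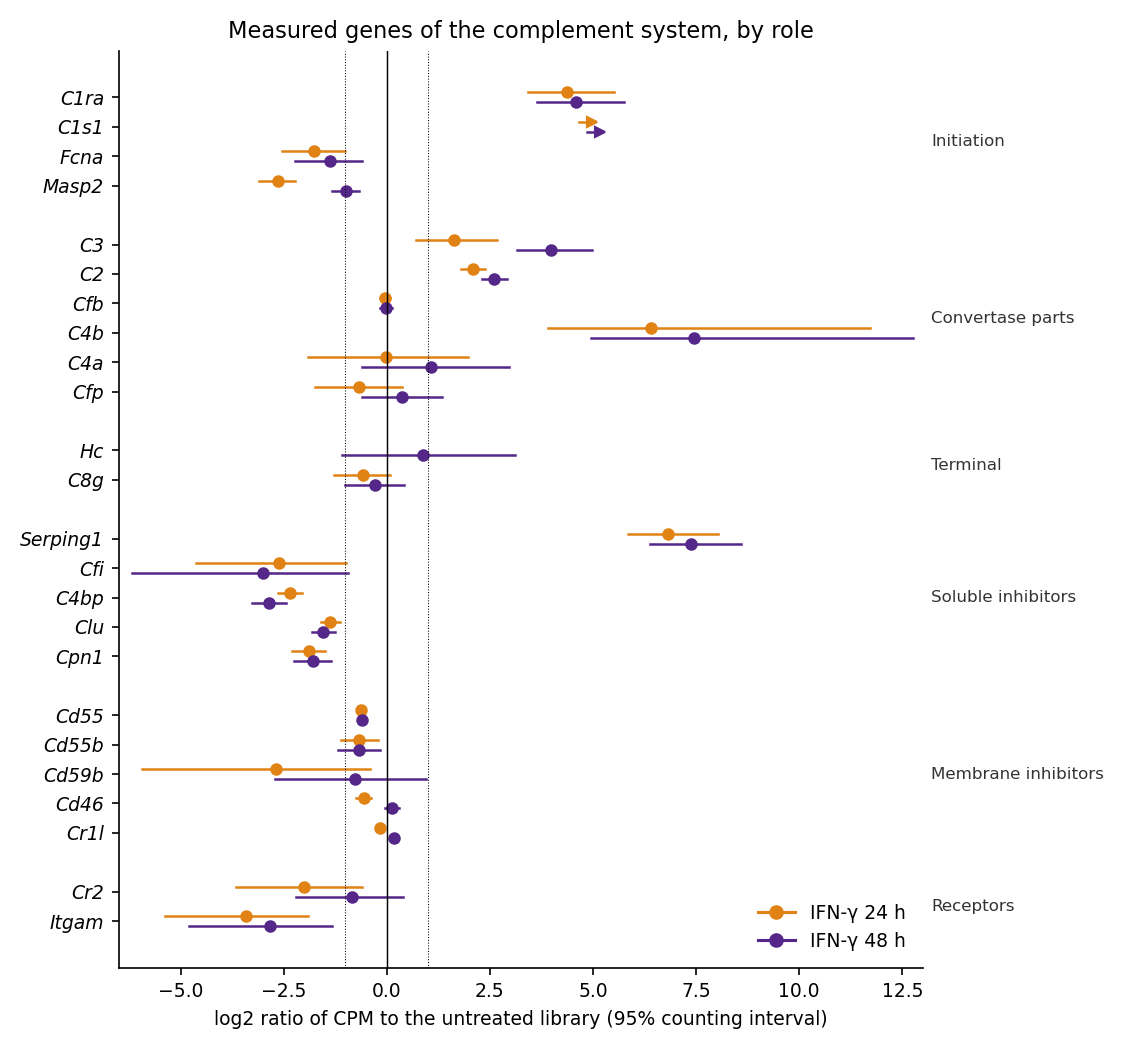
Log2 ratio of CPM to the untreated library (horizontal axis) at 24 h and 48 h for the genes of the complement list with at least 10 UMIs over the libraries compared, grouped by role. Lines are 95% counting intervals, triangles are lower bounds and dotted lines mark 2-fold. C1ra, C1s1, C2, C3, C4b and Serping1 lie to the right of the 2-fold line at both times, and Cfi, C4bp, Clu and Cpn1 to the left.

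The cells fell into 9 clusters that were formed without any of the 51 complement genes. Clusters led by Krt20 and Slc26a3, by Muc2 and Tff3, by Chga and Chgb and by Ube2c and Plk1 are called colonocyte-like, goblet-like, enteroendocrine-like and proliferating-like. The other clusters were left unnamed, among them cluster 0 (Lrrc4, Angpt2), which held 332, 179 and 1354 cells, cluster 2 (Ung, Ccne2) and cluster 5 (Pparg, Cftr). In cluster 0, 7 of 10 stem cell markers, Lgr5 and Axin2 among them, were higher than in the other cells. In cluster 6, 7 of 12 proliferation markers were higher. In both, 0 of these were among the 10 leading genes. In cluster 2, 4 of 12 proliferation markers were higher and 1 of them, Mcm3, was among its 10 leading genes. Its median log2 fold over that list was -0.30, below that of another marker list, so it got no name. Enteroendocrine-like cells, the hormone-secreting cells of the gut, numbered 30, 12 and 18. Both treated counts are below the minimum of 20 cells set for states, and they are described as an exception chosen after their values were seen.

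Serping1 was concentrated in enteroendocrine-like cells in each library. In enteroendocrine-like cells it had 5 UMIs (8.85 CPM) untreated, 448 UMIs at 24 h and 197 UMIs at 48 h, or 1275 CPM (1160 to 1399) and 1131 CPM (979 to 1301). All 12 and all 18 treated cells had a UMI, against 4 of 30 untreated cells. The count per cell ran from 2 through a median of 22.5 to 103 at 24 h and from 1 through 6.5 to 42 at 48 h, and from 0 to 2 in untreated cells. In CPM of single cells the median was 916 (172 to 2021) at 24 h and 622 (168 to 3809) at 48 h. The counting intervals of the summed levels do not measure this spread between cells. These 12 cells, 1.31% of the cells at 24 h, held 34.7% of all Serping1 UMIs, and the 18 cells at 48 h, 0.613% of the cells, held 15.7%. The level was 107-fold (95.2 to 120) that of the other cells at 24 h and 50.2-fold (42.9 to 58.5) at 48 h. In the untreated library it was 145-fold (28.3 to 935), on 5 of 8 UMIs.

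A related choice of cells gave levels of the same order. Cells were picked instead by at least 10 UMIs of Chga and Chgb together, a rule added after the data were seen. Both genes also led the cluster, so this was no independent check. It gave 7.44 CPM in 18 untreated cells, 917 CPM (829 to 1012) in 12 cells at 24 h and 976 CPM in 14 cells at 48 h. The 24 h interval lay below that of the cluster, 1160 to 1399 CPM. After each cell was thinned to 5000 UMIs, all 12 and all 18 treated enteroendocrine-like cells still had a UMI, against 5.74% of colonocyte-like cells at 24 h and 11.9% at 48 h. Only 1 cell outside the cluster reached 20 Serping1 UMIs in each treated library, against 7 and 3 enteroendocrine-like cells. In both libraries that 1 cell was in the goblet-like cluster. At 24 h it had 22 Serping1 UMIs, and no goblet-like cell had more than 1 Chga or 1 Chgb UMI. At 48 h the highest counts in the goblet-like cluster were 27 Serping1, 31 Chga and 26 Chgb UMIs, and for each gene only 1 goblet-like cell reached 20. At a clustering resolution of 1, the enteroendocrine-like cluster at 48 h held 19 cells and 224 Serping1 UMIs, in place of 18 cells and 197. The 48 h cell outside the cluster may thus be an enteroendocrine-like cell. Goblet-like cells then had 75.2 CPM of Serping1 at 48 h. Irf1 stood at 433 and 459 CPM in the treated enteroendocrine-like cells at 24 h and 48 h. The states with at least 20 cells had 300.5 to 812 CPM at 24 h, the highest in cluster 8. At 48 h they had 286 to 336 CPM, below the enteroendocrine-like level.

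Goblet-like cells, which secrete mucus, came next. Serping1 had 1 UMI in 134 untreated goblet-like cells, 183 UMIs (38.8 CPM, 33.4 to 44.8) in 78 cells at 24 h and 287 UMIs (83.6 CPM, 74.2 to 93.9) in 234 cells at 48 h. These levels were 2.32-fold and 3.77-fold those of the other cells and lay above the background of 19.4 and 25.9 CPM. After thinning, 20.5% of goblet-like cells had a UMI at 24 h and 25.6% at 48 h. The remaining states with at least 20 cells lay between 6.20 and 27.5 CPM in the treated libraries, at or below the background barcodes within counting error. This depended on the clustering. At a clustering resolution of 1 in place of 0.5, colonocyte-like cells had 41.2 CPM (35.1 to 48.1) at 48 h, above the background, and 11.5 CPM at 24 h. Counted per barcode, the order was another. Serping1 averaged 0.0259 UMIs per background barcode at 24 h and 0.0463 at 48 h, against 0.979 and 0.471 per proliferating-like cell and 1.08 and 0.626 per colonocyte-like cell, which held more UMIs of all genes. How much of the counts in these states was free RNA was not tested. Without the enteroendocrine-like cells, Serping1 in the other cells was at 11.9 CPM at 24 h and 22.5 CPM at 48 h, and its log2 ratio for 48 h over 24 h was 0.92 in place of 0.55.

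**Figure D3:**
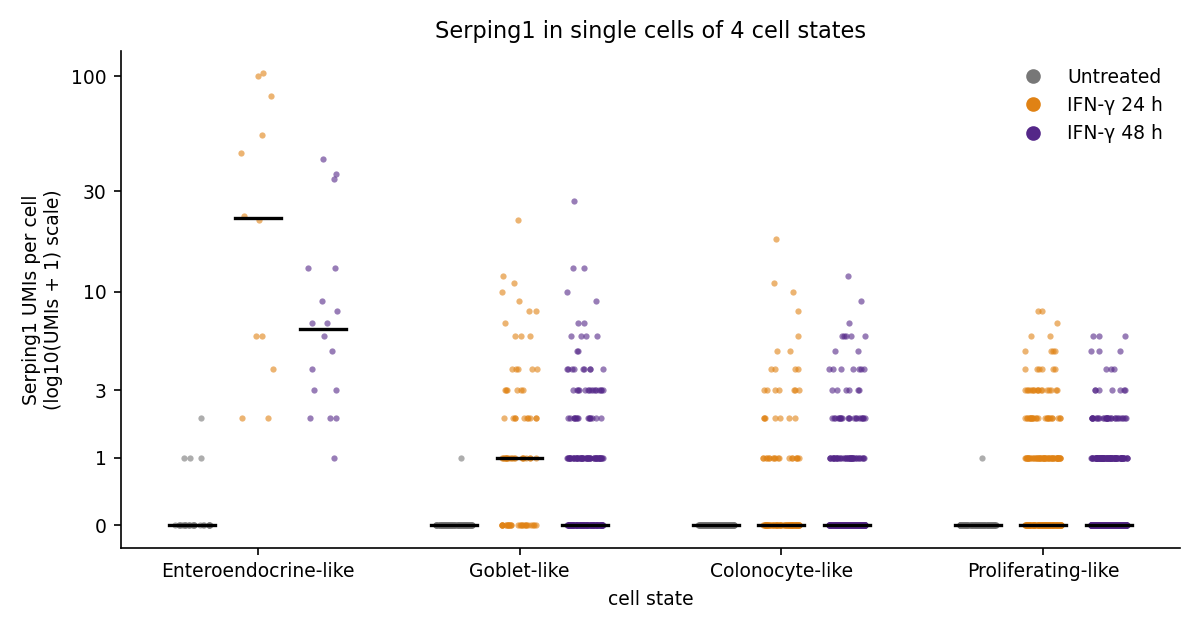
Serping1 UMIs per cell (vertical axis, log10(UMIs + 1) scale) in 4 cell states of the 3 libraries, with 1 point per cell and a black line at the median. All treated enteroendocrine-like cells lie above 0, with medians of 22.5 and 6.5 UMIs, while the median of goblet-like cells is 1 at 24 h and 0 at 48 h.

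Cd55 was distributed over the states in a different way. At the clustering resolution of 0.5 it was highest in colonocyte-like cells among the states with at least 20 cells. Colonocyte-like cells, the absorptive cells of the surface, had 132 CPM (125 to 139) untreated, 92.6 CPM (87.4 to 98.0) at 24 h and 89.4 CPM (82.7 to 96.6) at 48 h. These levels were 2.69-fold, 2.80-fold and 2.43-fold those of the other cells. At a clustering resolution of 1, a smaller colonocyte-like cluster had 101, 63.9 and 60.1 CPM, below these intervals. It held 736, 541 and 235 Cd55 UMIs, against 1470, 1194 and 648 at 0.5. Many Cd55 UMIs thus lay in other clusters there, and which state was then highest is not given. Goblet-like cells then had 31.6, 19.7 and 22.0 CPM. Goblet-like cells had the lowest Cd55 of the states with at least 20 cells, 31.5, 19.7 and 22.7 CPM. The lower level in treated libraries appeared within states, with ratios to untreated at 24 h of 0.702 (0.65 to 0.758) in colonocyte-like, 0.638 (0.580 to 0.702) in proliferating-like and 0.627 (0.486 to 0.803) in goblet-like cells. On the log2 scale these were -0.51, -0.65 and -0.67, beside -0.46 for the median gene over all cells. Cluster 5 had the second highest level at 48 h, 76.8 CPM (62.8 to 93.0), which overlapped the interval of colonocyte-like cells. Untreated cluster 5 cells averaged 1.86 Cd55 UMIs among 14444.5 UMIs of all genes, and untreated colonocyte-like cells 7.62 among 57764.5. As a share of all UMIs, the levels of both were close. In cluster 5, 4 of 12 colonocyte markers were higher than in the other cells.

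The components were spread over states. C2 at 48 h ran from 10.2 CPM in goblet-like cells to 24.9 CPM in cluster 5. Colonocyte-like cells (15.6 CPM) did not differ from the other cells (13.7 CPM) beyond counting error. That depended on the clustering, since at a resolution of 1 they had 20.2 CPM (16.0 to 25.2), beside 14.0 CPM over all cells. C2 was 7.47-fold (4.29 to 14.1) above untreated in colonocyte-like, 3.92-fold (2.02 to 8.07) in goblet-like and 3.03-fold (2.09 to 4.52) in proliferating-like cells at 24 h. The late level of C3 appeared in each of these states. C3 was 4.89-fold (2.71 to 9.29) higher at 48 h than at 24 h in colonocyte-like and 5.65-fold (3.14 to 10.7) higher in proliferating-like cells, and goblet-like cells had 1 UMI at 24 h and 12 at 48 h.

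C1ra was lower in goblet-like cells than in the others, 1.27 against 3.92 CPM at 24 h and 2.04 against 4.57 CPM at 48 h, and had 0 UMIs in all enteroendocrine-like cells. With so few cells the counting interval of a count of 0 reached 10.5 CPM at 24 h and 21.2 CPM at 48 h. Lower expression was thus not detectable at this depth. C4b had 31.3 CPM (15.6 to 56.0) in the enteroendocrine-like cells at 24 h, from 11 UMIs in 3 of 12 cells, against 1.56 CPM in the other cells. At 48 h it had 3 UMIs there. Cfb ran from 9.30 CPM in cluster 6 to 28.5 CPM in cluster 5 at 48 h. Proliferating-like cells had 0.594-fold (0.496 to 0.709) the level of the other cells untreated, 0.921-fold (0.815 to 1.04) at 24 h and 0.754-fold (0.635 to 0.891) at 48 h. In these cells its 24 h level was 15.4 CPM against 11.2 CPM untreated, and in goblet-like cells 15.3 CPM against 21.6 CPM.

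Of the other soluble inhibitors, C4bp was highest in goblet-like cells in the untreated and 24 h libraries, with 18.9 and 5.09 CPM, and had 1.17 CPM there at 48 h. Cpn1 was highest in enteroendocrine-like cells, where it had 46.0, 62.6 and 34.5 CPM from 26, 22 and 6 UMIs. In those cells Cpn1 thus showed no drop beyond counting error, while it was lower over all cells.

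**Figure D4:**
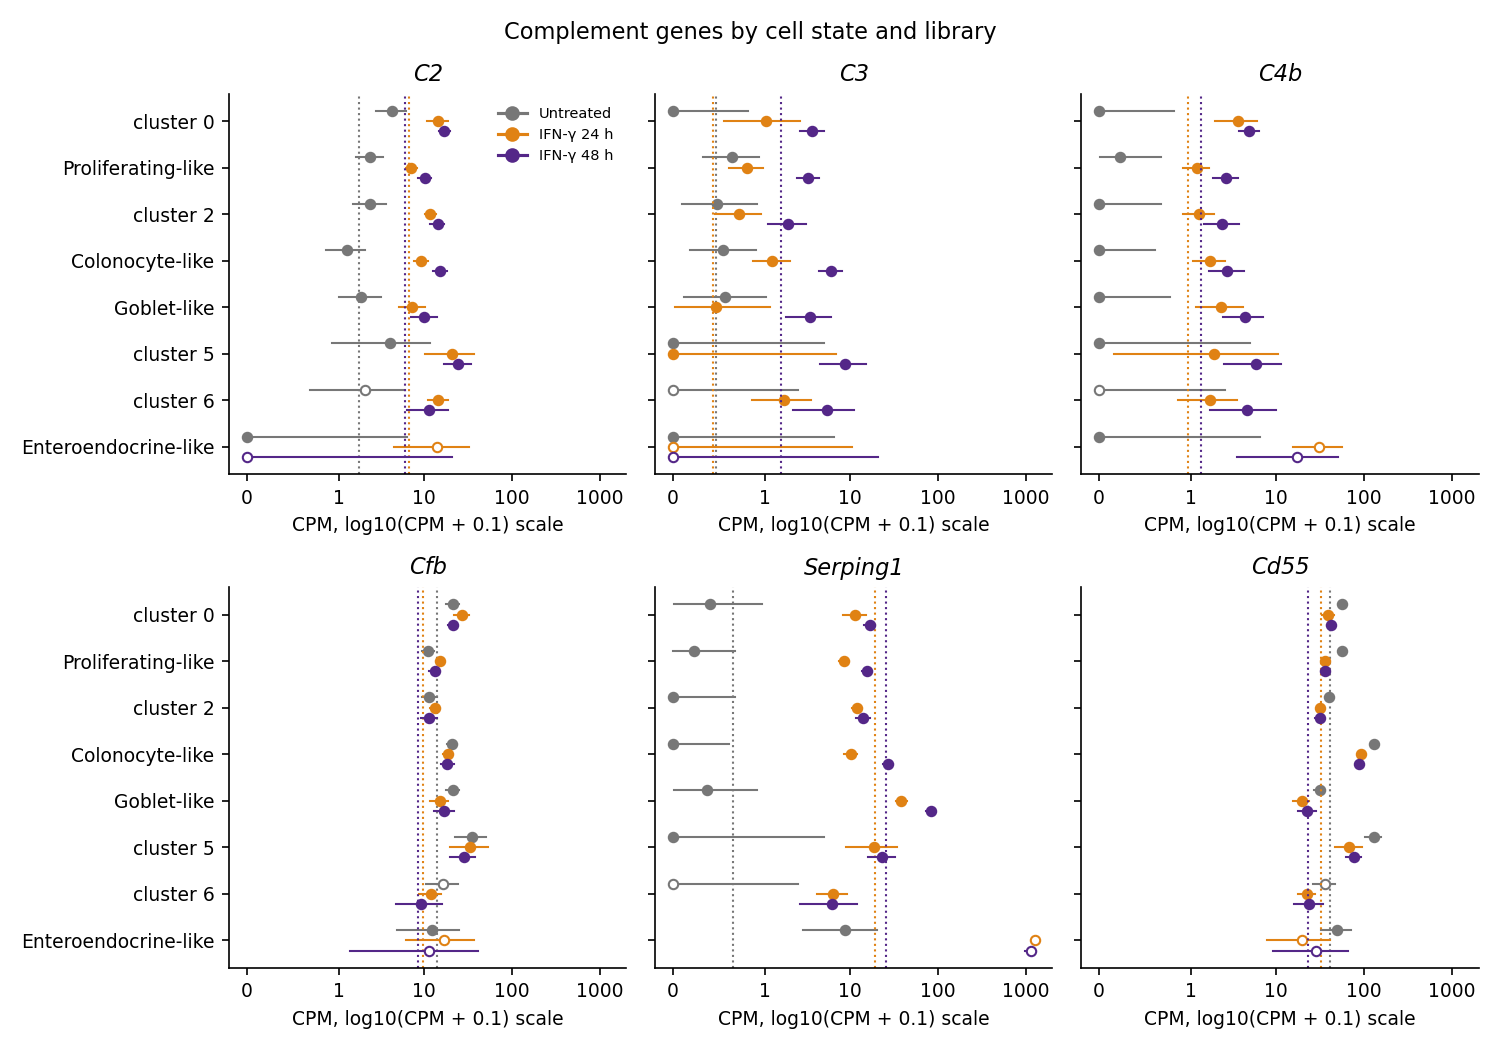
Levels of 6 genes in CPM (horizontal axis, log10(CPM + 0.1) scale) by cell state (rows) and library (colours), with 95% counting intervals. Open points rest on fewer than 20 cells and dotted lines give the level in barcodes with under 2000 UMIs. The states are those at a clustering resolution of 0.5. Serping1 reaches 1275 and 1131 CPM in treated enteroendocrine-like cells, and Cd55 is highest in colonocyte-like cells among the states with at least 20 cells.

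Genes whose levels ran most like each member were found among 10490 genes over 22 sums of cells, each sum being 1 state in 1 library, with Pearson's r of log2(CPM + 1). They were Acod1 (0.87) and Bid (0.83) for C3, Smpdl3b (0.94) and Dipk1a (0.93) for C2, Cfap157 (0.86) and Slc39a14 (0.84) for Cfb, and Nlrc5 (0.95) and H2-Q6 (0.95) for C4b. For C1ra they were Rtl4 (0.92) and Rmdn3 (0.92), for Serping1 H2-T22 (0.93) and Cd274 (0.92), and for Cd55 Mgmt (0.91) and Mep1b (0.90). The 22 sums come from 3 libraries and share their depth and treatment, and the treated enteroendocrine-like cells are not among them, so the values are a description.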

How the data were processed

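The authors prepared 10x Genomics 3′ v3 libraries, mapped reads to mm10 with Cell Ranger 6.0.1 and deposited UMI counts per gene and barcode, without normalization. The matrices held 17227 to 22478 barcodes each. Following the methods of the study, barcodes below 5000 UMIs or 400 genes, or above 15% mitochondrial UMIs, were dropped. The release of the annotation is not given in the sources used here. Positions come from GENCODE vM21.

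Counts were summed over cells and scaled to CPM. Ratios have exact conditional binomial, levels exact Poisson and shares exact Clopper-Pearson intervals at 95%, which cover counting error only. A gene was measured with at least 10 UMIs over the 2 libraries compared, and a count of 0 was set to a floor of 3 UMIs. Clusters come from Seurat 5.3.0 (CCA over 30 dimensions, 2000 variable genes without the complement genes, 20 principal components, resolution 0.5), with a minimum of 20 cells per state. Doublets were not called. TMM factors come from edgeR 4.0.16, used for scaling only, and other steps from Python 3.11.15 and R 4.3.3. The members, lists and alternatives were chosen with earlier results of these data known. Named genes were the members, listed genes at least 2-fold from untreated, close copies, Irf1 as a check of treatment (1 further check gene is not reported here) and the 2 genes most like each member, with the other membrane inhibitors named after their values were seen. Alternatives were other cell and gene filters, scalings, weightings, resolutions and thinning depths.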

Additional observations from a re-analysis of the deposited data

Results flagged for a closer look

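Barcodes with under 2000 UMIs lie outside the comparisons. In the treated libraries they carried more RNA of 5 of the genes than in the untreated one, at 1 or both times. Serping1 stood at 19.4 CPM at 24 h and 25.9 CPM at 48 h, against 0.378 CPM. C2 stood at 6.88 and 6.15 CPM, against 1.75 CPM. C1ra stood at 2.25 and 2.12 CPM, against 0.241 CPM. C4b stood at 0.936 and 1.33 CPM, against 0, and C3 at 0.187 CPM at 24 h and 1.61 CPM at 48 h, against 0.206 CPM. Cfb (14.1, 9.78 and 8.54 CPM) and Cd55 (41.5, 32.8 and 23.1 CPM) were lower there in both treated libraries. Free RNA and shallow cells cannot be told apart in these barcodes.

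Cfb at 24 h had opposite directions in 2 states, with a log2 ratio to untreated of 0.46 (0.19 to 0.74) in proliferating-like and -0.50 (-0.93 to -0.08) in goblet-like cells. The opposite direction depends on the scaling, since the median gene over all cells was at -0.46 and TMM factors bring these values to 0.91 (0.64 to 1.18) and -0.05 (-0.48 to 0.36). The difference was not tested, since each condition has 1 library.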

How the results depend on the processing

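Over 9 alternatives and 3 comparisons, 171 of 189 log2 ratios of single members kept their sign, and the 18 that did not were of Cfb, Cd55 (48 h over 24 h) and C1ra (48 h over 24 h). Of the 189, 29 lay outside the counting interval of the reported value, and 15, of C3, C4b, C1ra and Serping1, were more than 1.5 times away from it. The fold of Serping1 above untreated ran from 54.0 to 196 at 24 h and from 57.7 to 370 at 48 h. That of C4b ran from 22.4 to 201 and from 44.3 to 343, where 22.4 and 44.3 are lower bounds against the floor of 3 UMIs. That of C3 at 48 h reached 27.3 with the mean over cells. The number of members at least 2-fold higher at 48 h than at 24 h was 1 in place of 2 with a minimum of 2000 or of 10000 UMIs, at most 10% mitochondrial UMIs, TMM factors, the mean over cells of CPM, states weighted by their share, or without cells with other lineages' markers. Their median log2 ratio for that comparison was 0.26, 0.10 and 0.33 (TMM, mean over cells, without marker cells) in place of 0.52. For the 51 listed genes, the median at 24 h was -0.18 under TMM in place of -0.63. The number lower at 24 h was 5 in place of 9 with at least 50 UMIs. The number higher at 48 h over 24 h was 2 (2000 UMIs, 10000 UMIs, TMM) or 3 (weighted states, without marker cells, at least 50 UMIs) in place of 6, and the number lower was 1 in place of 0 with 10000 UMIs. Among values by state, 6 were counted as moved and 63 as the same at a clustering resolution of 1, and 48 as the same at 0.3. With cells chosen by at least 10 UMIs of Chga and Chgb, 2 were counted as moved and 7 as the same. Shares of cells with a UMI depended most on the setting. With thinning to 2000 UMIs, 19 shares moved and 5 stayed the same, and likewise 19 and 5 without thinning. The causes were not tested.

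Depth per cell differed between libraries and limits shares of cells and ratios between 24 h and 48 h. The 306 shallowest cells at 24 h and the 978 cells of middle depth at 48 h had similar depth. Between them C2, Serping1 (40.4 and 38.3 CPM), C1ra (7.87 and 5.50 CPM) and Cfb (29.8 and 21.7 CPM) had lower values at 48 h. C3 (0.638 and 4.43 CPM), C4b (2.98 and 4.52 CPM) and Cd55 (45.5 and 48.5 CPM) had higher values. Some rest on few UMIs, 3 and 50 for C3, 14 and 51 for C4b and 37 and 62 for C1ra. No counting intervals were computed for these values, and cell states were not matched between the groups of cells. How far depth shaped the ratios was not tested. Each library stands alone, and leaving one out leaves no comparison. No paired analysis was possible because each condition has 1 library.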
